A study of Rattus norvegicus with 9 samples.

Results

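The receptors described here are 10 G protein-coupled receptor (GPCR) genes of rat mast cells (MCs), namely the chemokine receptors Cxcr4 and Ccr1, the neuropeptide receptor Gpr171, the adenosine receptors Adora2a, Adora2b and Adora3, the anaphylatoxin receptors C3ar1 and C5ar1, the prostaglandin E2 receptor Ptger4 and the sphingosine 1-phosphate receptor S1pr1. They were matched by symbol among the 38490 gene rows that each sample listed, of which 18006 had values. Cxcr4 and Gpr171 were chosen by their measured falls in these same samples, so their levels are given as a description and without a test. The other 8 are receptors known from MCs. Of the 10 genes, 9 had values, and Ccr1 was listed without a value in all 9 samples.

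The samples were RNA-seq libraries of RBL-2H3 cells (RBLs), a rat basophilic leukemia cell line used as a model of MCs. By their labels, the 3 Ctrl samples were given no antigen. The 3 IgE/DNP samples had, by their labels, been sensitized with IgE at 50 ng/ml over 12 h and then given the antigen DNP-HSA at 100 ng/ml for 4 h. The 3 PF samples had the same sensitization and antigen, after a pretreatment of 1 h with PF, an agent that the labels and the paper's text leave unidentified. One label field gives all PF samples 4 h of antigen, while another gives 4, 5 and 6 h to replicates 1, 2 and 3. For the Ctrl samples, one field says untreated and another describes sensitization, so whether they received IgE is unsettled. All 9 samples come from 1 tumor line. The labels do not say whether replicates were separate cultures, and the paper speaks of independent experiments without tying them to these samples. The p-values measure the spread between the samples, which may be technical.

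GPCRs cross the cell membrane and pass the binding of an outside ligand to G proteins inside the cell. In MCs, antigen that crosslinks IgE on the high-affinity receptor sets off degranulation, and GPCRs for chemokines, adenosine, complement fragments and lipids modify that response and guide the cells' movement. Receptors that couple to Gs raise cyclic AMP and those that couple to Gi lower it. Levels below are FPKM, a read-out of sequenced fragments corrected for transcript length and for how many fragments a sample gave, so that levels of different genes can be set side by side. In these bulk samples, fewer cells that carry a transcript and less of it per cell cannot be told apart.

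The sum of the deposited values ran from 573023 to 591539 FPKM over the Ctrl and IgE/DNP samples and from 610206 to 630069 FPKM over the PF samples. The number of reads is unknown. Each of the 9 samples lay nearest to a sample of its own group. Of 12 MC and basophil markers, 11 had values, and each of these reached 1 FPKM, including Kit and the receptor chains Fcer1a, Ms4a2 and Fcer1g. Of 23 markers of macrophages, T cells, B cells, neutrophils, epithelium and fibroblasts, 18 had values and 4 reached 1 FPKM in any sample. Their summed level was between 11.0 and 12.4 FPKM in Ctrl, between 11.2 and 12.8 in IgE/DNP and between 11.7 and 13.5 in PF samples, against 5390 to 5780 FPKM for the MC markers over all 9 samples. Cd3e, a T cell marker, had 6.74 to 9.52 FPKM and was the largest part of the sum for other cell types. The T cell markers Cd3d, Cd3g, Cd4 and Cd8a stayed below 1 FPKM. Srgn, with group means from 2780 to 2910 FPKM, was the highest of the MC markers. The part of the other cell type markers in the results was not tested.

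The promoters of Cxcr4 and Gpr171 are shown first, because these are the genes picked for their falls. Both are the 250 bases before the gene start in RefSeq, build GRCr8, read 5' to 3' on the gene's own strand, at chr13:42634289-42634538 (minus strand) for Cxcr4 and chr2:145515393-145515642 (minus strand) for Gpr171. Capitals mark matches, on either strand, to the motifs searched.
Cxcr4: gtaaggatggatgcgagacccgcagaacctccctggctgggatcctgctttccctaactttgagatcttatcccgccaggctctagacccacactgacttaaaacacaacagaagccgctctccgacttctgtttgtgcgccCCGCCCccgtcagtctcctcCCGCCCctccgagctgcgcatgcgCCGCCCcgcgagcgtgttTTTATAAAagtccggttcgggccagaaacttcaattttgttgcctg
Gpr171: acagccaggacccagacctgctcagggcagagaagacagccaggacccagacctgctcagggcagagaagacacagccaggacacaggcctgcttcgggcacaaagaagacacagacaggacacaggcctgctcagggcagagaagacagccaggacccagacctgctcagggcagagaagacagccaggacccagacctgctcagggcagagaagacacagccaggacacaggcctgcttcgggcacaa

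The Cxcr4 stretch was 57.6% G and C, against a median of 51.2% over 33469 promoters of this length. It held 3 GC boxes (GGGCGG, in 30.5% of all promoters) and a TATA box (TATAAA, in 12.9%), matched on both strands at overlapping positions. Neither the Cxcr4 nor the Gpr171 stretch held AP-1 letters (TGANTCA, 6.34% of promoters), a CRE (TGACGTCA, 1.59%), EGR letters (GCGTGGGCG, 0.478%), NFAT letters (GGAAAA, 21.6%) or GATA letters (AGATAA, 10.3%). The TATA and GC boxes were added to the search after the Cxcr4 sequence had been seen. The Gpr171 stretch was 61.6% G and C and matched none of the 7 motifs. It is a tandem repeat, since all 104 bases that could be compared with the base 146 positions further on were identical. Of the 10 genes, 7 were in the promoter table. Among the others there, C3ar1 held 1 match each to AP-1, NFAT, GATA and GC box letters, Adora2b held 4 GC boxes, and Ptger4, S1pr1 and Ccr1 held no match. A missing match says only that these letters are not in this window.

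Cxcr4 (gene ID 60628) encodes the receptor for the chemokine CXCL12 and couples to Gi. It was the most abundant of the receptors in Ctrl samples and far less abundant in both antigen-stimulated groups. The 3 Ctrl samples had 95.35, 89.56 and 87.27 FPKM. The IgE/DNP samples had 36.99, 34.75 and 36.10 FPKM, and the PF samples had 32.88, 30.01 and 32.72 FPKM. Every stimulated sample was below every Ctrl sample, and the PF samples were just below the IgE/DNP samples without overlap. The mean fell from 90.7 ± 4.16 FPKM (SD, n = 3) in Ctrl to 35.9 ± 1.13 (SD, n = 3) in IgE/DNP, which is 39.6% of the Ctrl mean, and was 31.9 ± 1.61 (SD, n = 3) in PF, which is 35.1%. On the log2(FPKM + 1) scale, the difference of IgE/DNP from Ctrl was -1.31 (standard error, SE, 0.0437) and that of PF from Ctrl was -1.48 (SE 0.0515). The difference of PF from IgE/DNP was -0.17 (SE 0.0473). Because Cxcr4 was picked for its fall, no test is given. In Ctrl, 94.3% of genes with values had a lower mean level than Cxcr4, against 85.0% in IgE/DNP and 83.9% in PF.

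Gpr171 (gene ID 688737) encodes a receptor for BigLEN, a peptide cut from the precursor proSAAS, and belongs by sequence to the receptor group of P2RY12. Its level was close in Ctrl and IgE/DNP samples and low in PF samples. The Ctrl samples had 33.42, 30.26 and 34.29 FPKM and the IgE/DNP samples had 35.35, 36.51 and 35.54 FPKM. The PF samples had 10.74, 9.41 and 9.35 FPKM. The IgE/DNP samples lay just above the Ctrl samples without overlap, and all PF samples lay far below both. The means were 32.7 ± 2.12 FPKM (SD, n = 3) in Ctrl, 35.8 ± 0.622 (SD, n = 3) in IgE/DNP and 9.83 ± 0.786 (SD, n = 3) in PF, which is 27.5% of the IgE/DNP mean. The log2 difference was 0.13 (SE 0.0508) for IgE/DNP from Ctrl, which became 0.08 without Ctrl replicate 2, and -1.77 (SE 0.0573) for PF from IgE/DNP. Again no test is given. The PF sample that both label fields put at 4 h of antigen had 10.74 FPKM, the highest of the PF samples, and against it alone the log2 difference from IgE/DNP was -1.65.

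Cxcr4 and Gpr171 were low in different groups. Cxcr4 was low in all samples that had received antigen, with or without PF, and Gpr171 was low in the PF samples. In IgE/DNP samples, their levels overlapped, at 34.75 to 36.99 FPKM for Cxcr4 and 35.35 to 36.51 FPKM for Gpr171. In PF samples, Gpr171 was instead level with Adora2a, which had 9.39, 9.34 and 9.78 FPKM. The plot of levels by sample shows these patterns.

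**Figure D1:**
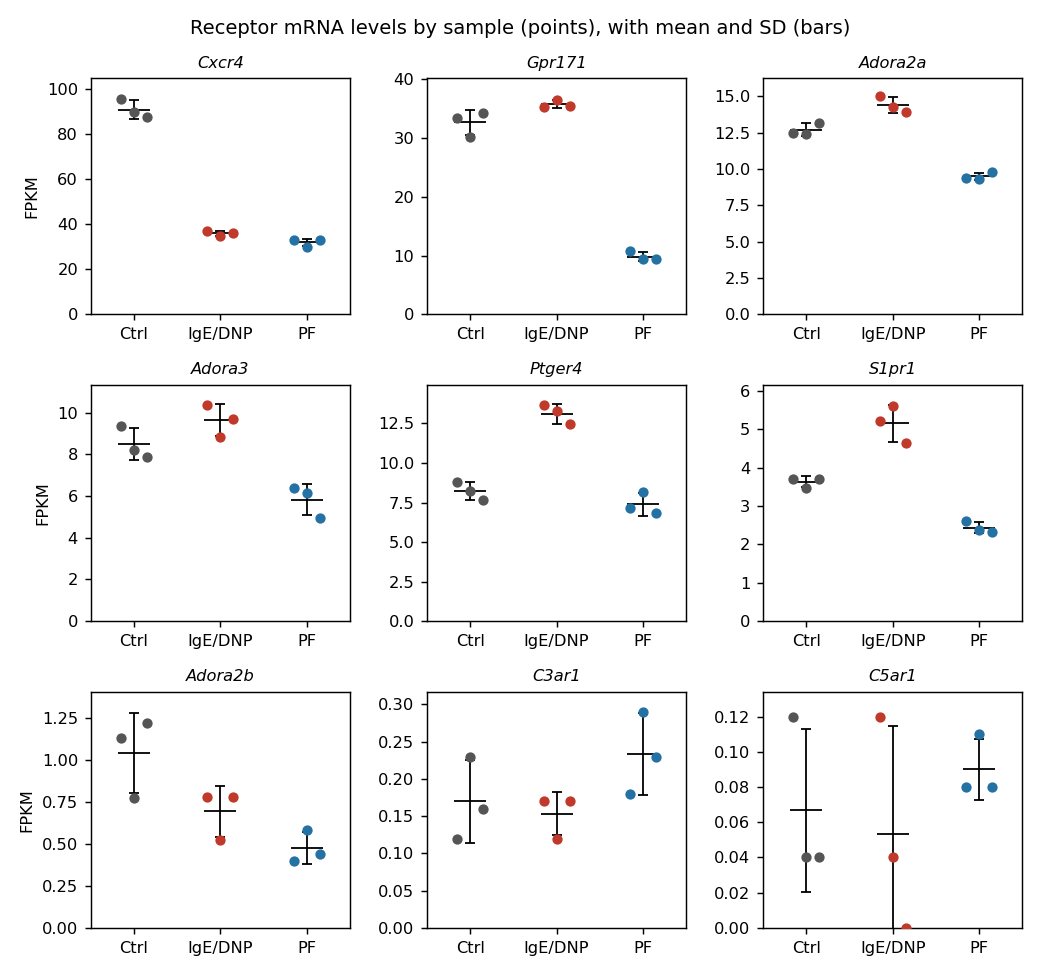
Level of each of the 9 receptor genes with values, in FPKM on linear axes that start at 0, in the 3 Ctrl (grey), 3 IgE/DNP (red) and 3 PF (blue) samples. Points are samples, horizontal lines are means and error bars are SD. Cxcr4 drops from about 90.7 to 35.9 FPKM with antigen, Gpr171 drops from 35.8 to 9.83 FPKM between IgE/DNP and PF, and Adora2a, Adora3, Ptger4 and S1pr1 are lowest in PF.

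The 8 receptors not picked for their falls were tested with limma on log2(FPKM + 1). A gene entered when 3 or more of the 6 samples compared had 1 FPKM or more. This filter kept 4 of the 8, Adora2a, Adora3, Ptger4 and S1pr1, and a gene was called at a Benjamini-Hochberg adjusted p of at most 0.05 over all genes tested. In IgE/DNP vs Ctrl, 3 of the 8 were called, all higher, where 29.2% of the 10392 genes tested were called, 14.7% higher and 14.4% lower. In PF vs IgE/DNP, 4 of the 8 were called, all lower, where 48.8% of 10329 genes were called, 18.1% higher and 30.7% lower. In PF vs Ctrl, 3 of the 8 were called, all lower, where 57.7% of 10361 genes were called, 23.1% higher and 34.6% lower. The comparisons share samples, so these counts are not independent of each other. The shares are over tested genes, while the filter kept only 4 of the 8 receptors, so counts out of 8 cannot be set directly against them. Of the 4 tested, 3, 4 and 3 were called in the 3 comparisons. With only 4 genes tested, no result about the receptors as a group is read from these counts. Their results are given gene by gene.

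The split of all called genes in the PF comparisons moved with the scaling of the samples. In PF vs IgE/DNP, 37.1% of the called genes were higher with the values as deposited, 51.5% with median-ratio scaling and 16.8% after scaling all samples to 1 common sum. In PF vs Ctrl, the shares were 40.0%, 51.1% and 26.7%. The median log2 difference over all genes was -0.038, 0.019 and -0.128 in PF vs IgE/DNP and -0.047, 0.015 and -0.12 in PF vs Ctrl. The directions given for the tested receptors were the same under each scaling.

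Adora2a (gene ID 25369) encodes an adenosine receptor that couples to Gs and is known to restrain immune cells. The Ctrl samples had 12.48, 12.39 and 13.18 FPKM, and the IgE/DNP samples had 15.02, 14.29 and 13.95 FPKM. With the PF values above, the 3 groups did not overlap, and PF was lowest. The mean was 12.7 ± 0.432 FPKM (SD, n = 3) in Ctrl, 14.4 ± 0.547 (SD, n = 3) in IgE/DNP and 9.50 ± 0.241 (SD, n = 3) in PF. Adora2a was lower in PF than in IgE/DNP, at -0.55 on the log2 scale (SE 0.0523, limma adjusted p = 4.51e-05), and lower in PF than in Ctrl, with -0.38 (SE 0.0539, limma adjusted p = 0.000417). The rise in IgE/DNP over Ctrl was small, at 0.17 (SE 0.0515, limma adjusted p = 0.0365). This call was lost with no filter on low values (limma adjusted p = 0.0581) and with replicate numbers as a block (0.0703). It was also lost without Ctrl replicate 1 (limma adjusted p = 0.0874) or 2 (0.0958) and without IgE/DNP replicate 1 (0.126), 2 (0.0825) or 3 (0.0583).

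Adora3 (gene ID 25370) encodes an adenosine receptor that couples to Gi and is known to add to degranulation of rodent MCs. The Ctrl samples had 9.35, 8.23 and 7.89 FPKM, the IgE/DNP samples had 10.38, 8.85 and 9.68 FPKM, and the PF samples had 6.38, 6.14 and 4.97 FPKM. The Ctrl and IgE/DNP samples overlapped, and every PF sample was below all of them. The mean of 5.83 ± 0.754 FPKM (SD, n = 3) in PF was 60.5% of the IgE/DNP mean of 9.64 ± 0.766 (SD, n = 3), a log2 fold change of -0.64 (SE 0.093, limma adjusted p = 0.000544). Against the Ctrl mean of 8.49 ± 0.764 (SD, n = 3), the log2 fold change of PF was -0.48 (SE 0.0969, limma adjusted p = 0.00301). IgE/DNP vs Ctrl, at 0.165 (SE 0.0794, limma adjusted p = 0.154), did not pass.

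Adora2b (gene ID 29316) encodes a low-affinity adenosine receptor that couples to Gs and is studied for its part in MC activation. It was close to 1 FPKM or below in every sample and did not pass the filter. The Ctrl samples had 1.13, 0.77 and 1.22 FPKM, the IgE/DNP samples had 0.78, 0.52 and 0.78 FPKM, and the PF samples had 0.40, 0.58 and 0.44 FPKM. The PF samples lay below the Ctrl samples without overlap (p = 0.1 in a two-sided exact permutation test, the smallest that 3 samples against 3 can give), and both other pairs of groups overlapped (exact permutation test, p = 0.3 for IgE/DNP vs Ctrl and 0.2 for PF vs IgE/DNP). With no filter, limma gave -0.465 on the log2 scale for PF vs Ctrl (adjusted p = 0.0122).

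The 3 adenosine receptors together had 21.4 to 23.0 FPKM in Ctrl, 23.7 to 26.2 FPKM in IgE/DNP and 15.2 to 16.2 FPKM in PF samples. The summed level was thus lowest in PF, without overlap with the other groups. Adora2a made up between 54.4% and 64.4% of the sum in every sample, so the most abundant adenosine receptor was the same throughout.

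Ptger4 (gene ID 84023) encodes EP4, a prostaglandin E2 receptor that couples to Gs. The Ctrl samples had 8.82, 8.25 and 7.68 FPKM, the IgE/DNP samples had 13.65, 13.29 and 12.44 FPKM, and the PF samples had 7.16, 8.16 and 6.81 FPKM. The IgE/DNP samples were above all others, and the PF and Ctrl samples overlapped. The mean was 8.25 ± 0.57 FPKM (SD, n = 3) in Ctrl and rose to 13.1 ± 0.621 (SD, n = 3) in IgE/DNP, a log2 fold change of 0.61 (SE 0.0646, limma adjusted p = 0.000472). It was 7.38 ± 0.701 FPKM (SD, n = 3) in PF, a log2 fold change of -0.76 from IgE/DNP (SE 0.0721, limma adjusted p = 4.78e-05). In GRCr8, Ptger4 overlaps the long noncoding RNA gene LOC120100730, which was not analysed here. PF vs Ctrl, at -0.145 (SE 0.0799, limma adjusted p = 0.152), did not pass. It depended on the scaling, with -0.215 (limma adjusted p = 0.0403, a pass) when all samples were scaled to 1 common sum and -0.084 (limma adjusted p = 0.395) with median-ratio scaling, and on single samples, with -0.1 without Ctrl replicate 1 and -0.096 without PF replicate 3.

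S1pr1 (gene ID 29733) encodes a sphingosine 1-phosphate receptor that couples to Gi and is known for cell migration. The Ctrl samples had 3.72, 3.48 and 3.72 FPKM, the IgE/DNP samples had 5.23, 5.60 and 4.65 FPKM, and the PF samples had 2.61, 2.39 and 2.32 FPKM. The 3 groups did not overlap. The mean was 3.64 ± 0.139 FPKM (SD, n = 3) in Ctrl and rose to 5.16 ± 0.479 (SD, n = 3) in IgE/DNP, a log2 fold change of 0.41 (SE 0.0788, limma adjusted p = 0.00667). In PF it was 2.44 ± 0.151 FPKM (SD, n = 3), which is 47.3% of the IgE/DNP mean, a log2 fold change of -0.84 (SE 0.0834, limma adjusted p = 6.12e-05). PF was also below Ctrl, at -0.43 (SE 0.0752, limma adjusted p = 0.00132).

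**Figure D2:**
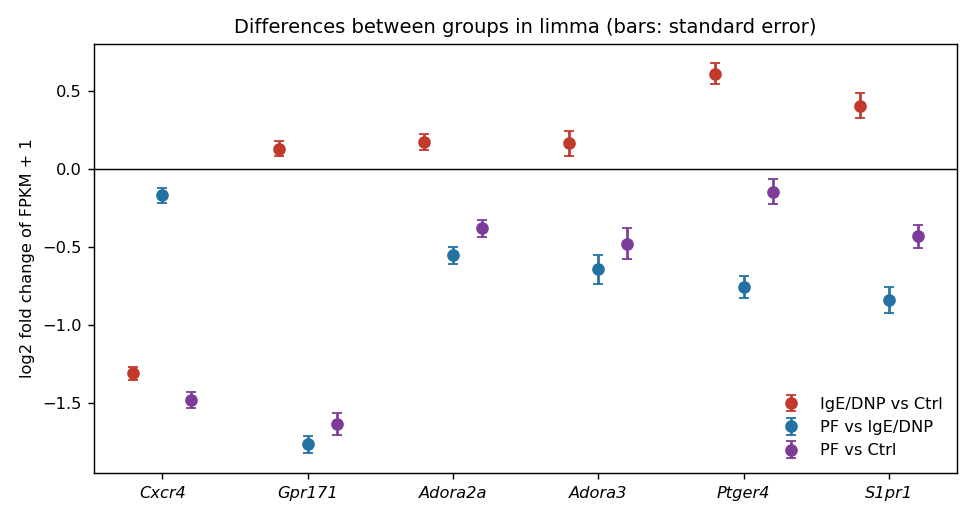
Log2 fold change of FPKM + 1 for the 6 receptors above the filter, in IgE/DNP vs Ctrl (red), PF vs IgE/DNP (blue) and PF vs Ctrl (purple). Points are limma estimates and bars are standard errors. Cxcr4 is near -1.31 with antigen and -0.17 between PF and IgE/DNP, Gpr171 is at 0.13 and -1.77 in the same comparisons, and Ptger4 and S1pr1 are the receptors highest above 0 in IgE/DNP vs Ctrl.

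C3ar1 and C5ar1, which bind the complement fragments C3a and C5a and couple to Gi, were near 0. C3ar1 (gene ID 84007) was between 0.12 and 0.29 FPKM in the 9 samples. Its PF samples, at 0.18, 0.29 and 0.23 FPKM, lay just above the IgE/DNP samples, at 0.17, 0.12 and 0.17 FPKM (p = 0.1 in the two-sided exact permutation test). C5ar1 (gene ID 113959) was between 0 and 0.12 FPKM, and its groups overlapped in every comparison (exact permutation test, p = 1.0, 0.4 and 0.4 for IgE/DNP vs Ctrl, PF vs IgE/DNP and PF vs Ctrl). At these levels a difference would be hard to detect. Ccr1 (gene ID 57301), a receptor for the chemokines CCL3 and CCL7, had no value.

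The order of levels, from highest to lowest mean in Ctrl, was Cxcr4, Gpr171, Adora2a, Adora3, Ptger4, S1pr1, Adora2b, C3ar1 and C5ar1. Adora3 and Ptger4 overlapped there, as did C3ar1 and C5ar1. In IgE/DNP and PF, Ptger4 stood above Adora3 without overlap, and the rest of the order by mean was the same. The 9 receptors together had 153 to 165 FPKM in Ctrl, 113 to 118 FPKM in IgE/DNP and 66.4 to 69.8 FPKM in PF samples. Cxcr4 made up 56.1% to 58.5% of that sum in Ctrl, 30.5% to 31.9% in IgE/DNP and 45.2% to 49.1% in PF.

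Ligands of these receptors and the enzymes that make or remove them were looked up in a list of 22 genes, of which 18 had values. Most of the peptide ligands were near 0 in the RBLs. Cxcl12, the ligand of Cxcr4, was at most 0.03 FPKM in any sample, and C3 and C5 were at most 0.03 and 0.20 FPKM. Pcsk1n, which encodes proSAAS, the precursor of the Gpr171 ligand, had 4.28 ± 1.04 FPKM in Ctrl, 3.85 ± 0.667 in IgE/DNP and 5.07 ± 0.416 in PF (SD, n = 3 each). Its PF vs IgE/DNP log2 fold change of 0.33 (SE 0.109, limma adjusted p = 0.0322) was lost in 8 of 14 alternatives, with adjusted p of 0.0854 without IgE/DNP replicate 2, 0.0643 without PF replicate 1 and 0.1 without PF replicate 2. Ccl7, a ligand of Ccr1, had 0.78 ± 0.175 FPKM in Ctrl, 1.97 ± 0.441 in IgE/DNP and 0.427 ± 0.175 in PF (SD, n = 3 each). It passed the filter through the IgE/DNP samples alone, so that a difference was a condition of its being tested, and no test is given.

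Ptgs2, the inducible cyclooxygenase upstream of prostaglandin E2, was highest in IgE/DNP, as Ptger4 was. It rose from 564 ± 40.7 FPKM in Ctrl to 886 ± 37.0 in IgE/DNP (log2 fold change 0.65, limma adjusted p = 0.000169) and was 581 ± 49.3 in PF (-0.61 against IgE/DNP, limma adjusted p = 5.39e-05; SD, n = 3 each). Adk, adenosine kinase, which clears adenosine inside cells, rose from 9.81 ± 0.437 to 12.6 ± 1.05 FPKM with antigen (log2 fold change 0.33, limma adjusted p = 0.00805) and was 13.7 ± 0.742 in PF (0.445 against Ctrl, limma adjusted p = 0.000356; SD, n = 3 each). Ada, adenosine deaminase, averaged 49.9, 42.8 and 50.0 FPKM in Ctrl, IgE/DNP and PF, and its lower level in IgE/DNP than in Ctrl (limma adjusted p = 0.0153) did not pass without IgE/DNP replicate 1 (0.0517) or 2 (0.0562). Nt5e, which makes adenosine outside cells, was 0.78, 0.697 and 1.25 FPKM on average in Ctrl, IgE/DNP and PF, with overlapping samples in each comparison. Sgpl1 and Sphk2, which break down and make sphingosine 1-phosphate, were both lower in PF than in Ctrl, at -0.27 (limma adjusted p = 0.000821) and -0.38 (limma adjusted p = 0.00312). Over the list, 3 of 8 genes tested were called higher and 2 lower in IgE/DNP vs Ctrl, 2 of 9 higher and 4 lower in PF vs IgE/DNP, and 2 of 8 higher and 2 lower in PF vs Ctrl. Of these calls, both lower ones in IgE/DNP vs Ctrl (Ada and Sgpl1), 4 of the 6 in PF vs IgE/DNP (Pcsk1n, Ada, Sgpl1 and Sphk2) and 1 in PF vs Ctrl (Ptgs1, higher) were lost in at least 1 alternative, and Ccl7 is among those counted in the first 2 comparisons.

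Other receptors were read from lists of related genes. Their counts stand beside the shares of all genes tested that were called, which were 14.7% higher and 14.4% lower in IgE/DNP vs Ctrl, 18.1% and 30.7% in PF vs IgE/DNP, and 23.1% and 34.6% in PF vs Ctrl, and nothing particular to a list is read from them. A few called genes passed the filter through 1 group alone, and for these the count is no support. They were Cx3cr1 in PF vs Ctrl and P2ry4, S1pr2 and Gpr183 in both PF comparisons, singled out after their values were seen. Alternatives were run for up to 3 called genes in each direction per list and comparison, so further calls that do not hold may go unnamed. Of 24 chemokine receptor genes in the list, 16 had values. Besides Cxcr4, 4 or fewer passed the filter in each comparison. Ackr3, which binds CXCL12 as Cxcr4 does and removes it, was the most abundant of them and was also lower with antigen. It had 138 ± 9.37 FPKM in Ctrl, 77.4 ± 4.06 in IgE/DNP and 99.6 ± 3.65 in PF (SD, n = 3 each), with log2 fold changes of -0.83 in IgE/DNP vs Ctrl (SE 0.0565, limma adjusted p = 6.36e-05) and 0.36 in PF vs IgE/DNP (SE 0.0455, limma adjusted p = 0.000255). Ackr3 was thus higher in PF than in IgE/DNP, where Cxcr4 was slightly lower. Ccrl2, a binding protein for chemerin, had 5.16 ± 0.243, 6.05 ± 0.56 and 1.83 ± 0.24 FPKM in Ctrl, IgE/DNP and PF (SD, n = 3 each) and fell in PF vs IgE/DNP (log2 fold change -1.32, SE 0.0935, limma adjusted p = 8.1e-06). In all, 1 of 4 was called lower in IgE/DNP vs Ctrl, and 1 of 3 higher and 1 lower in PF vs IgE/DNP. In PF vs Ctrl, 4 of 4 were called lower, Cx3cr1 among them, where 34.6% of all genes tested were called lower. For the call of Ackr1 there (limma adjusted p = 0.0438) the groups overlapped and no alternatives were run.

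The sequence relatives of Gpr171 and other purinergic receptors gave 6 tested genes beside the adenosine receptors and Gpr171. In IgE/DNP vs Ctrl, 2 were called higher and 1 lower, in PF vs IgE/DNP 1 higher and 4 lower, and in PF vs Ctrl 2 higher and 4 lower. The higher call of P2ry1 in IgE/DNP vs Ctrl was lost in 7 of 13 alternatives (limma adjusted p up to 0.128), and those of P2ry2 (higher) and P2ry4 (lower) in both PF comparisons were lost in at least 1. P2ry14, the receptor for UDP-glucose, was the most abundant, with 65.8 ± 2.55 FPKM in Ctrl, 53.6 ± 2.18 in IgE/DNP and 32.9 ± 0.956 in PF (SD, n = 3 each). It fell in each comparison, by 0.29 on the log2 scale in IgE/DNP vs Ctrl (limma adjusted p = 0.00219), by 0.69 in PF vs IgE/DNP (limma adjusted p = 3.75e-06) and by 0.98 in PF vs Ctrl (limma adjusted p = 1.35e-06). P2ry1, an ADP receptor, had 7.34 ± 1.17, 9.21 ± 0.17 and 3.54 ± 0.346 FPKM (SD, n = 3 each) and fell by 1.17 in PF vs IgE/DNP (limma adjusted p = 3.84e-06).

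P2ry14 is also the next gene to Gpr171 on the chromosome in GRCr8, a build other than the one the files used, so only the order of genes is given. Gpr171 lies inside Med12l on the opposite strand, and the sources do not state whether counting used strand, so that reads of these genes may not be told apart. Med12l went the other way from Gpr171, with 13.4 ± 1.68 FPKM in Ctrl, 11.3 ± 1.15 in IgE/DNP and 17.4 ± 1.01 in PF (SD, n = 3 each). Clrn1, beyond Med12l, had 19.2, 18.3 and 19.5 FPKM on average. Siah2, further out on that side, had 16.4 ± 1.02, 15.3 ± 1.0 and 11.3 ± 0.615 FPKM (SD, n = 3 each) and was also lowest in PF. On the other side, beyond P2ry14, P2ry13 had 1.55, 0.99 and 1.10 FPKM, and P2ry12 was near 0. The plot of neighbouring genes sets these levels beside those of the CXCL12 receptors. Siah2, Clrn1, Med12l and P2ry12 were taken by position, after their values were seen, and have no test here. P2ry13 is among the tested purinergic receptors above. It was called lower in PF vs Ctrl (-0.28 on the log2 scale, limma adjusted p = 0.0434), a call for which no alternatives were run.

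**Figure D3:**
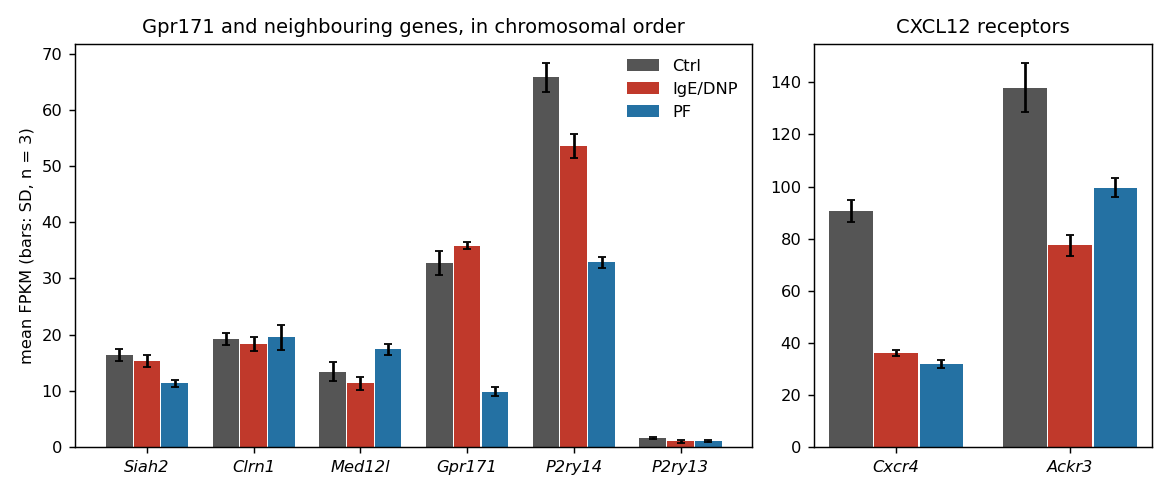
Mean FPKM in Ctrl (grey), IgE/DNP (red) and PF (blue) samples, with bars for SD (n = 3), on linear axes from 0. On the left are Gpr171 and neighbouring genes in chromosomal order. Levels of Gpr171 (9.83 FPKM), P2ry14 (32.9 FPKM) and Siah2 (11.3 FPKM) are lowest in PF, and that of Med12l is highest in PF (17.4 FPKM). On the right, the CXCL12 receptors Cxcr4 and Ackr3, both highest in Ctrl at 90.7 and 138 FPKM.

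Of the receptors for lipid mediators, the class of Ptger4 and S1pr1, 24 of 26 listed had values, and 5 other members were tested. In IgE/DNP vs Ctrl 3 were called higher and 1 lower, in PF vs IgE/DNP 1 higher and 3 lower, and in PF vs Ctrl 3 lower, S1pr2 being 1 of the 3 in both PF comparisons. The higher call of Cysltr1 in IgE/DNP vs Ctrl and the lower call of Lpar6 in PF vs Ctrl were lost in 5 of 13 and 2 of 14 alternatives. The median log2 fold change of these 5 was 0.199 in IgE/DNP vs Ctrl, against -0.008 over all genes tested. For the PF comparisons no median is given, since S1pr2 passed the filter through 1 group alone. The others in PF vs IgE/DNP were at -0.913 (Cysltr1), -0.634 (Lpar6), 0.043 (Ptger1) and 0.49 (Cnr2). In PF vs IgE/DNP, the chemokine receptor list, without Cxcr4, had a median of -0.12, against -0.038 over all genes tested. For the purinergic receptors none is given, since P2ry4 passed the filter through the IgE/DNP samples alone. The G protein alpha subunits had 0.157. S1pr2, which with S1pr1 answers sphingosine 1-phosphate, had 1.91 ± 0.255 FPKM in Ctrl, 3.38 ± 0.413 in IgE/DNP and 0.68 ± 0.165 in PF (SD, n = 3 each). It rose with antigen by 0.59 (SE 0.104, limma adjusted p = 0.00447). All PF samples were under 1 FPKM, and no test is given for PF. Lpar6, a lysophosphatidic acid receptor, had 34.6, 48.4 and 30.8 FPKM on average and moved by 0.47 (limma adjusted p = 0.000235) and -0.63 (limma adjusted p = 3.39e-06) in the same comparisons. Cnr2, the CB2 cannabinoid receptor, went the other way, by -0.44 (limma adjusted p = 0.00728) and 0.49 (limma adjusted p = 0.000168). Of the other prostaglandin E2 receptors, Ptger1 had 14.4, 12.5 and 12.9 FPKM on average, while Ptger2 and Ptger3 were at most 0.47 and 0.38 FPKM in any sample. Of 9 anaphylatoxin, formyl peptide and chemerin receptor genes listed, C3ar1 and C5ar1 included, 6 had values and none passed the filter.

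Of 23 further GPCRs known from MCs, 18 had values and 8 were tested. In IgE/DNP vs Ctrl, 4 rose, among them the histamine receptor Hrh4 (0.60, limma adjusted p = 0.00153) and Gpr35 (0.59, limma adjusted p = 0.00079). In PF vs IgE/DNP, 7 were called lower, Gpr183 among them, and 1 higher, where 30.7% of all genes tested were called lower and 18.1% higher. Gpr183 passed the filter through the IgE/DNP samples alone, so no median is given for this list. The proton sensor Gpr65 fell most, from 13.4 ± 1.69 to 4.33 ± 0.569 FPKM (SD, n = 3 each), or -1.43 on the log2 scale (SE 0.104, limma adjusted p = 9.46e-06), and the adhesion receptor Adgre5 fell from 102 ± 2.77 to 51.2 ± 2.04 FPKM (SD, n = 3 each), or -0.98 on the log2 scale (SE 0.0397, limma adjusted p = 5.91e-07). The neuromedin U receptor Nmur1 rose by 0.55 (limma adjusted p = 0.000334). In PF vs Ctrl, 5 were called lower, Gpr183 again among them, and 1 higher.

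**Figure D4:**
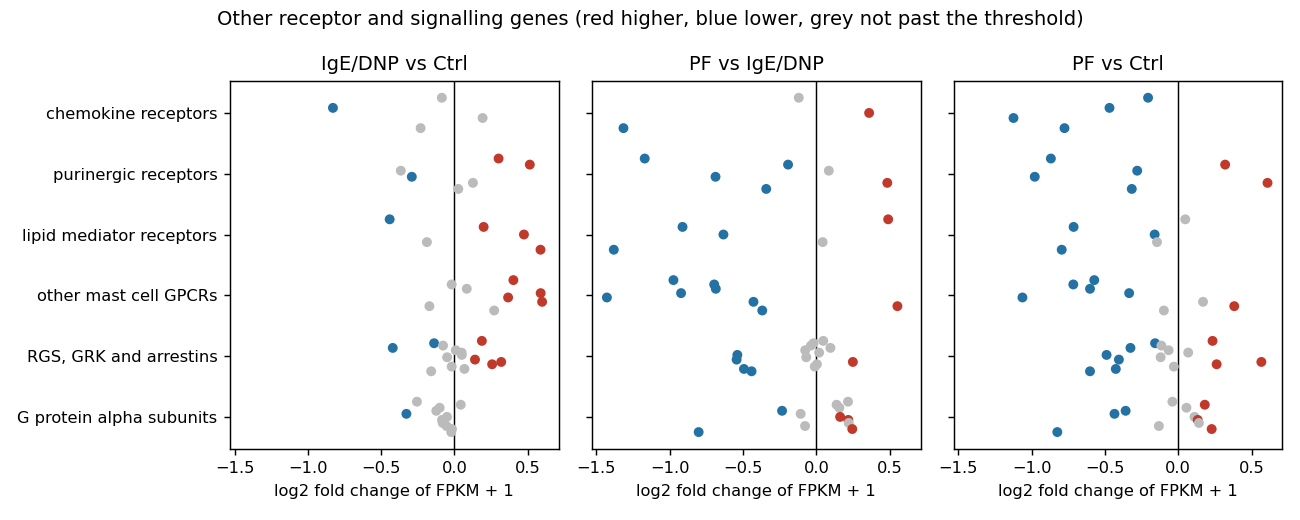
Log2 fold change of FPKM + 1 for tested genes of 6 lists, without the 10 receptors described here, in IgE/DNP vs Ctrl (left), PF vs IgE/DNP (middle) and PF vs Ctrl (right). Each point is a gene, red if called higher, blue if called lower and grey if not called (threshold 0.05 on the adjusted p of limma). In the middle panel, 7 of 8 other MC GPCRs and 3 of 5 lipid mediator receptors are blue, where 30.7% of all genes tested were called lower. Gpr183 and S1pr2 are among the blue points but passed the filter through the IgE/DNP samples alone, so they lend these counts no support.

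Genes that act behind the receptors were read the same way. Of 14 tested genes for regulators of G protein signalling (RGS), receptor kinases and arrestins, 4 were called higher and 2 lower in IgE/DNP vs Ctrl, 1 higher and 4 lower in PF vs IgE/DNP, and 3 higher and 6 lower in PF vs Ctrl, with medians of 0.029, -0.028 and -0.117 and against the shares of all genes above. The calls of the arrestin genes Arrb1 (higher) and Arrb2 (lower) in IgE/DNP vs Ctrl were lost in 6 and 8 of 13 alternatives, and that of Rgs14, the 1 higher gene in PF vs IgE/DNP, in 2 of 14. Rgs1 and Rgs2, which shorten G protein signals, had 1910 ± 72.4 and 2090 ± 71.4 FPKM in Ctrl (SD, n = 3 each) and were the most abundant. Rgs1 fell by 0.54 (limma adjusted p = 4.98e-05) and Rgs2 fell by 0.49 (limma adjusted p = 0.000322) in PF vs IgE/DNP. Of 11 tested G protein alpha subunits, 1 was called lower in IgE/DNP vs Ctrl, 3 higher and 2 lower in PF vs IgE/DNP, and 3 higher and 3 lower in PF vs Ctrl. Those of Gnai2 (higher) and Gna14 (lower) in PF vs IgE/DNP and of Gnai3 and Gna12 (both higher) in PF vs Ctrl were lost in at least 1 alternative. Gnaz, a subunit of the Gi family, went from 32.0 ± 1.66 FPKM (SD, n = 3) in IgE/DNP to 19.91, 17.81 and 16.17 FPKM in the PF samples, a log2 fold change of -0.80 (SE 0.0726, limma adjusted p = 3.48e-05). Gnai2, the main Gi subunit here, had 225 and 252 FPKM on average in the same groups, and Gnas, the Gs subunit, had 569 and 675 FPKM. Among the MC and basophil markers, 2 of 11 were called higher and 4 lower in IgE/DNP vs Ctrl, 3 higher and 3 lower in PF vs IgE/DNP, and 4 higher and 4 lower in PF vs Ctrl, and 4 of the 6 calls in PF vs IgE/DNP (Fcer1a, Mcpt2, Hdc and Mitf), like Hdc in IgE/DNP vs Ctrl and Ms4a2 in PF vs Ctrl, were lost in at least 1 alternative. Of the other cell type markers 2 were tested, Cd3e and Cd68, which were called in neither of the first 2 comparisons. In PF vs Ctrl, Cd3e was called higher and Cd68 lower, and these calls were lost in 10 and 7 of 14 alternatives.

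To place the receptors among all genes, the 5 genes with the most similar profile were found for each, by the root mean square difference of centred log2(FPKM + 1) over the 9 samples, among 10504 genes. The nearest to Cxcr4 were Lrrc51 (0.189), Txnip (0.218), Ly49si1 (0.225), Ciart (0.233) and Hhex (0.237). Txnip, a binding partner of thioredoxin, had 415 ± 4.33, 225 ± 4.09 and 202 ± 5.30 FPKM in Ctrl, IgE/DNP and PF, and the transcription factor gene Hhex had 24.6 ± 2.82, 13.5 ± 0.81 and 10.5 ± 0.773 FPKM (SD, n = 3 each). The nearest to Gpr171 was Card6 (0.0882), with 11.5 ± 0.449, 11.1 ± 0.664 and 2.92 ± 0.16 FPKM (SD, n = 3 each). Elmsan1 (0.128), Tagap (0.149), Zkscan1 (0.15) and LOC100360380 (0.15) followed.

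**Figure D5:**
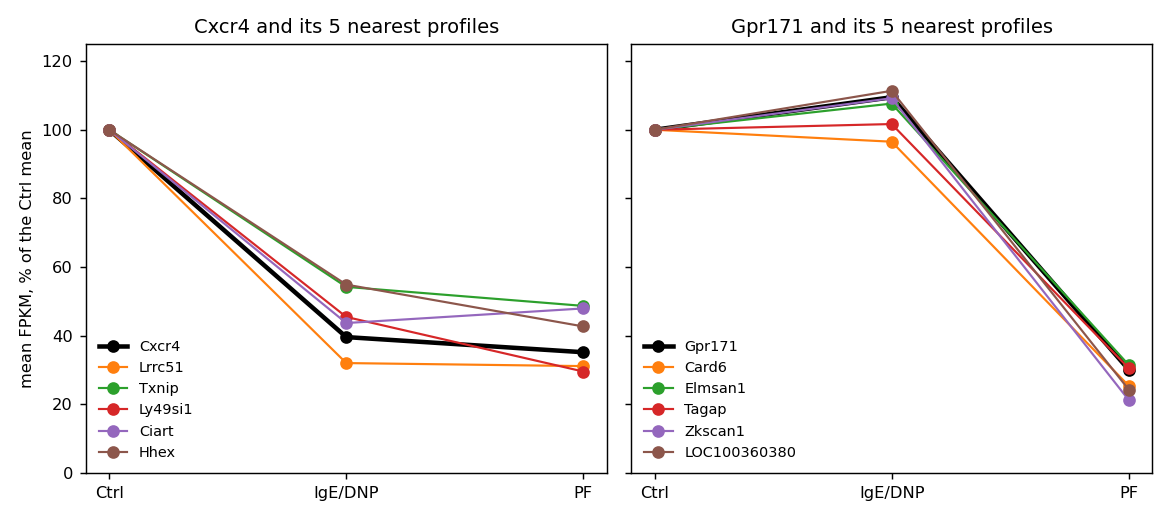
Mean FPKM of Cxcr4 (left) and Gpr171 (right) in black and of the 5 genes nearest in profile in colours, each as percent of its own Ctrl mean, on a linear axis from 0. The genes near Cxcr4 drop in IgE/DNP and remain low in PF, and those near Gpr171 stay near the Ctrl level in IgE/DNP and drop in PF, where Gpr171 is at 30.1%.

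Among the other receptors, Adora2a lay nearest to RGD1560248 (0.0353), Slc35b3 (0.0362), Dapk1 (0.0385), Cobll1 (0.0408) and Ell (0.0415). Adora3 lay nearest to Slc17a3 (0.0732), Bcl2 (0.085), Dexi (0.1), Slco4a1 (0.102) and Pim1 (0.104). Ptger4 lay nearest to Ccdc173 (0.0723), Fam102b (0.0858), Nedd9 (0.0871), LOC103690154 (0.0892) and the receptor Lpar6 (0.0892), and S1pr1 to Tshz1 (0.0443), the receptor Calcrl (0.0695), Ahr (0.0704), Ccnyl1 (0.0769) and Map1s (0.0815). A smaller range over the samples gives smaller differences, so these values are not comparable between receptors. Slc17a3 (0.933, 1.16 and 0.337 FPKM on average in Ctrl, IgE/DNP and PF) and Ccdc173 (0.31, 1.13 and 0.23 FPKM) were low. Their means reached 1 FPKM in IgE/DNP alone. At such levels, FPKM + 1 understates fold changes and can make a gene look nearer. Among the receptors themselves, Adora2a, Adora3, Ptger4 and S1pr1 differed from each other by 0.13 to 0.207. Cxcr4 and Gpr171 differed by 0.723, but they were picked for their falls, so this value is not set against the others.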

How the data were processed

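RNA was sequenced from 9 samples of RBL-2H3 cells, 3 each of Ctrl, IgE/DNP and PF, grouped by their labels. By the paper's methods and the submitters' processing notes, the authors filtered reads with SOAPnuke, mapped them with HISAT2 2.0.4, aligned them with Bowtie2 2.2.5 and quantified genes with RSEM 1.2.12, with build rn6. Illumina library protocols are named in the labels and a BGISEQ-500 sequencer in the paper. The authors deposited 1 value for each gene and sample, taken here as FPKM, which RSEM computes from the aligned reads. The header gives the column no unit, and FPKM was inferred from its decimals, its differing totals and the use of RSEM. FPKM is normalized for length and depth, so read depth is unknown, no counting error can be given, and precision rests on the 3 replicates.

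Samples were joined by gene identifier, since rows came in 5 orders. Each comparison used its own 6 samples and limma 3.58.1 in R 4.3.3 (lmFit, eBayes with trend) on log2(FPKM + 1). Genes entered with 1 FPKM or more in 3 or more samples, with Benjamini-Hochberg adjustment over all genes tested and a threshold of 0.05. A fold change on this scale understates that of low genes. Receptors below the filter had two-sided exact permutation tests (scipy 1.17.1), whose smallest p is 0.1. The test was checked on simulated data. Genes named are the 10 receptors, their ligands and enzymes, up to 3 called genes in each direction per list and comparison, and 5 nearest profiles. Genes described by position or for comparison of level (Siah2, Clrn1, Med12l, P2ry13, P2ry12, Ptger1, Ptger2 and Ptger3) were chosen after their values were seen. The members and lists were chosen with earlier results of these data known. Alternatives were a pseudocount of 0.1, no filter, all 3 groups in a fit, a replicate block, 2 scalings, limma without trend, each sample left out and the PF group cut to replicate 1, the sample with 4 h in every field. Promoters come from RefSeq GRCr8 and were not read from rn6.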

Additional observations from a re-analysis of the deposited data

How the results depend on the processing

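No named gene changed direction under the alternatives run. Over all genes, median-ratio scaling turned the sign of the median difference to 0.019 in PF vs IgE/DNP and 0.015 in PF vs Ctrl, and made most calls there higher (51.5% and 51.1%). Of 119 gene differences (1 gene in 1 comparison), 84 kept their call or value in every alternative and 30 lost a call in at least 1. Counts of genes called stayed within 1.5 times the count given. Leaving out each sample in turn gave 2099 to 2736 genes in IgE/DNP vs Ctrl, 4138 to 4796 in PF vs IgE/DNP and 5147 to 5541 in PF vs Ctrl, where fewer samples enter. With PF replicate 1 alone, the sample with 4 h in every field, the PF comparisons gave 3633 and 4022 genes, the lone sample being assumed to vary like the others, and the same counts of 4 and 3 receptors were called.

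Samples with the same replicate number deviated together weakly or not at all (correlations across genes from -0.0822 to 0.189). In PF vs Ctrl, all 3 correlations were positive (0.0908, 0.189 and 0.083). The labels do not say whether same-numbered samples shared a culture or batch, and correlations within groups of 3 cannot settle it. With the replicate number as a block, 2697, 4675 and 6009 genes were called in IgE/DNP vs Ctrl, PF vs IgE/DNP and PF vs Ctrl, and 2, 4 and 3 of the 8 receptors. The receptor lost was Adora2a.

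Of the tested receptors, Ptger4 and S1pr1 kept their calls in IgE/DNP vs Ctrl in every alternative, Adora2a, Adora3, Ptger4 and S1pr1 in PF vs IgE/DNP, and Adora2a, Adora3 and S1pr1 in PF vs Ctrl. Adora2a in IgE/DNP vs Ctrl lost its call in 7 of 13. In PF vs Ctrl, a receptor was added with no filter (Adora2b) and with the mean-sum scaling (Ptger4, whose adjusted p over the alternatives ran from 0.0403 to 0.395 in limma). Cxcr4 moved by more than its replicate spread with the mean-sum scaling, to -0.266 in PF vs IgE/DNP and -1.559 in PF vs Ctrl, and Gpr171 with the single PF sample, to -1.648 and -1.518. The cause was not tested. With a pseudocount of 0.1, an alternative for the profiles chosen after seeing the data, 4 of the 5 genes nearest to Cxcr4 and 3 of 5 for Gpr171 were shared, against 1 of 5 for S1pr1. Low FPKM limits Adora2b, C3ar1 and C5ar1, for which 3 samples against 3 cannot go below p = 0.1 in the exact permutation test.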
